A study of Mus musculus with 34 samples.

Results

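The genes described here encode the proteasome and its partners in the brain of adult mice. They were chosen by name, as all rows of the deposited table that are annotated as protein-coding in GENCODE M21 and whose symbol begins with Psma, Psmb, Psmc, Psmd, Psme, Psmf or Psmg. Of 50 such genes in the annotation, 49 are among the 18548 rows of the deposited table, and Psmb11 is not among them. One gene, Psmc3ip, carries the prefix but encodes a meiotic recombination factor and no proteasome subunit, so the label of the set holds for 48 of the 49 genes. RNA came from prefrontal cortex (PFC), hippocampus and striatum of male C57BL/6J mice on postnatal day 56 that were Myt1l heterozygotes or wild type, with no treatment. Libraries numbered 5 for PFC heterozygotes, 6 for PFC wild type, 5 for hippocampus heterozygotes, 6 for hippocampus wild type, 6 for striatum heterozygotes and 6 for striatum wild type. What the Myt1l allele is, and whether each library is a different animal, is not in the labels, so p-values measure the spread between these libraries, which may be technical.

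The proteasome degrades proteins tagged with ubiquitin, and in neurons it takes part in the turnover of synaptic proteins. Its 20S core is a barrel of alpha rings (Psma genes), which form the gate, around beta rings (Psmb genes), of which Psmb5, Psmb6 and Psmb7 carry the proteolytic sites. The regulatory particle caps the core: its base holds the ATPases that unfold substrates (Psmc genes) and the scaffolds Psmd1 and Psmd2, and its lid (other Psmd genes) removes ubiquitin. Psmd4 is a ubiquitin receptor of the particle. Interferon induces Psmb8, Psmb9 and Psmb10, which replace the constitutive catalytic subunits in the immunoproteasome, and Psma8 belongs to a testis form. Psme genes encode other caps of the core, Psmf1 an inhibitor, and Psmg genes with Psmd5, Psmd9 and Psmd10 encode chaperones of assembly. In the table stood 7 alpha, 7 constitutive beta, 8 base and 8 lid genes and Psmd4, which make 31 constitutive subunits, beside 4 inducible or testis core genes, 6 activator and inhibitor genes, 7 assembly chaperones and Psmc3ip.

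The level of Myt1l does not check the genotype labels. Myt1l stood at 6820 ± 456 normalized counts in PFC heterozygotes and 6650 ± 842 in PFC wild type, at 6896 ± 385 in hippocampus heterozygotes and 6216 ± 594 in hippocampus wild type, and at 8162 ± 954 in striatum heterozygotes and 7675 ± 552 in striatum wild type (SD). It was not lower in the libraries labelled heterozygous in any region, and heterozygote below means labelled so. The summed normalized counts per library ran from 25786041 to 29798959 and were highest in PFC. The depth before scaling is unknown. The column code 31-67M is shared by heterozygote libraries of hippocampus and striatum and a library labelled wild type in PFC, and the labels were followed. In all, 5 libraries have codes of the 31 series. The 34 libraries carry 12 codes, and every code recurs in at least 2 regions. Whether a code stands for 1 mouse is not given. If it does, the regions share mice, while the comparisons of regions below treat the libraries as independent. With the code as a random block, no call between regions changed for a gene that the naming rule given under processing picks for that comparison. Summed markers fitted the labelled tissues: the summed striatal markers ran from 38060 to 55830 in the striatum libraries of both genotypes and from 1640 to 6436 in all other libraries, and the summed hippocampal markers from 27130 to 32880 in hippocampus and from 8450 to 15900 elsewhere. Singly, 4 of the 5 hippocampal markers were called higher and 1 lower in hippocampus than in striatum, in each genotype. Against PFC 4 of the 5 were called higher in hippocampus, in each genotype. The summed cortical glutamatergic markers varied among the striatum libraries, from 2226 to 11070 in heterozygotes and from 2345 to 12010 in wild type. They ran from 48550 to 49950 in PFC heterozygotes and from 47950 to 50840 in PFC wild type, and from 31290 to 36880 in hippocampus, and their part in the contrasts with striatum was not tested.

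The stretches before the transcription start are shown for 4 genes whose RNA differed between regions in both genotypes: Psmb10 and Psmc5, which were highest in PFC, Psmb5, which was lower in striatum than in hippocampus, and Psme3, which was lowest in striatum. Each is the 100 bases before the outermost GENCODE M21 start of the gene, from the RefSeq promoter table (build GRCm38.p6), 5′ to 3′ on the strand of the gene. Capitals mark a searched motif: in Psmc5 the core of the nuclear respiratory factor site, in Psmb5 the core of the antioxidant response element and in Psme3 a CCAAT box on the other strand. Their places are chr8:105938445-105938544 (minus strand) for Psmb10, chr11:106256054-106256153 (plus strand) for Psmc5, chr14:54618023-54618122 (minus strand) for Psmb5 and chr11:101316113-101316212 (plus strand) for Psme3.
Psmb10: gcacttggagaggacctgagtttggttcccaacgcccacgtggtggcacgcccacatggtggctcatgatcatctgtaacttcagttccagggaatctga
Psmc5: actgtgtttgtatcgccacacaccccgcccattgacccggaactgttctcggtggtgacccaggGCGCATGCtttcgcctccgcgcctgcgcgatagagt
Psmb5: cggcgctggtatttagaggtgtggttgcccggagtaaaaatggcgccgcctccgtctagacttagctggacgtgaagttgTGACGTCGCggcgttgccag
Psme3: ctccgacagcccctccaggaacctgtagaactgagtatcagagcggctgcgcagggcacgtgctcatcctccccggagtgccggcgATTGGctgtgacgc

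Promoter windows of 300 bases, from 250 before to 50 after the RefSeq start, were given for 41 of the 49 genes, in 44 windows. The 5 motifs below were searched on both strands, and the letters of none contain another, although matches can overlap. The ETS family motif CCGGAAGT lay in 22.7% of the windows and in 3.89% of 32817 promoter windows of all genes. It was found for 9 of the 41 genes, among them the ATPase genes Psmc1 and Psmc2, the lid genes Psmd6, Psmd12 and Psmd13 and the activator genes Psme3 and Psme4. The core of the interferon-stimulated response element lay in 11.4% of the windows against 3.43% of all promoters, and its 5 genes were Psmb3, Psmd4, Psmd9, Psmg4 and Psme1, with none of Psmb8, Psmb9 and Psmb10. The nuclear respiratory factor core GCGCATGC lay in 6.82% against 2.71%, for Psma2, Psmc5 and Psmg1. The antioxidant response element core TGACNNNGC lay in 13.6% against 12.4% (Psmb5, Psmb6, Psmc6, Psmd9, Psmd12 and Psme4), and CCAAT in 31.8% against 37.4%. These matches describe letters in the window, and no match says nothing about a factor.

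Levels of different genes are compared per kb of exon, as normalized counts divided by the length of all annotated exons of the gene, averaged over the 34 libraries. The 31 constitutive subunits lay between 257.4 and 2078 per kb, Psmb10 lay just under that range, and Psmb8, Psmb9 and Psma8 lay far below it. These levels rest on the length used: with the longest transcript in place of all exons, 20 of the 49 genes were over 1.5 times higher, among them Psmb6 with 1671, against 862.5 with all exons. With that length Psmb10 had 323.7 and lay further below the lowest constitutive subunit, Psmd11 with 552.3. Among the alpha genes Psma6 was highest with 1333 per kb and Psma2 lowest with 510.8. Among the constitutive beta genes Psmb5, the chymotrypsin-like subunit, was highest with 1657 and Psmb3 lowest with 443.6, although Psmb6 was above Psmb5 with the longest transcript. The ATPase gene Psmc5 had the highest level of all 49 genes with 2078 per kb, and Psmc2 the lowest of the base with 387.1.

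In the lid, Psmd7 reached 959.7 per kb and Psmd11 257.4, the lowest of the constitutive subunits, while the receptor gene Psmd4 stood at 575.2. Psme3, the nuclear activator, led the activators with 853.7 per kb, and Psme2b, a near copy of the interferon-induced activator gene Psme2, was lowest with 11.7. Among the chaperones Psmd10 had 201.6 and Psmg3 had 65.5 per kb, although with the longest transcript Psmd5 (308.0) was above Psmd10 (207.1). Psmb10 stood at 248.9 per kb, Psmb8 at 15.7, Psmb9 at 6.85 and Psma8 at 3.35, and Psmc3ip at 29.2. Psma8 and Psme2b had mean values of 8.36 and 9.83 normalized counts per library, under the minimum mean of 10 of the tests across regions, so 47 genes were tested there. Psma8 was listed at 0 in at least 1 library of hippocampus wild type, and Psme2b in at least 1 of hippocampus heterozygotes and 1 of striatum wild type.

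**Figure D1:**
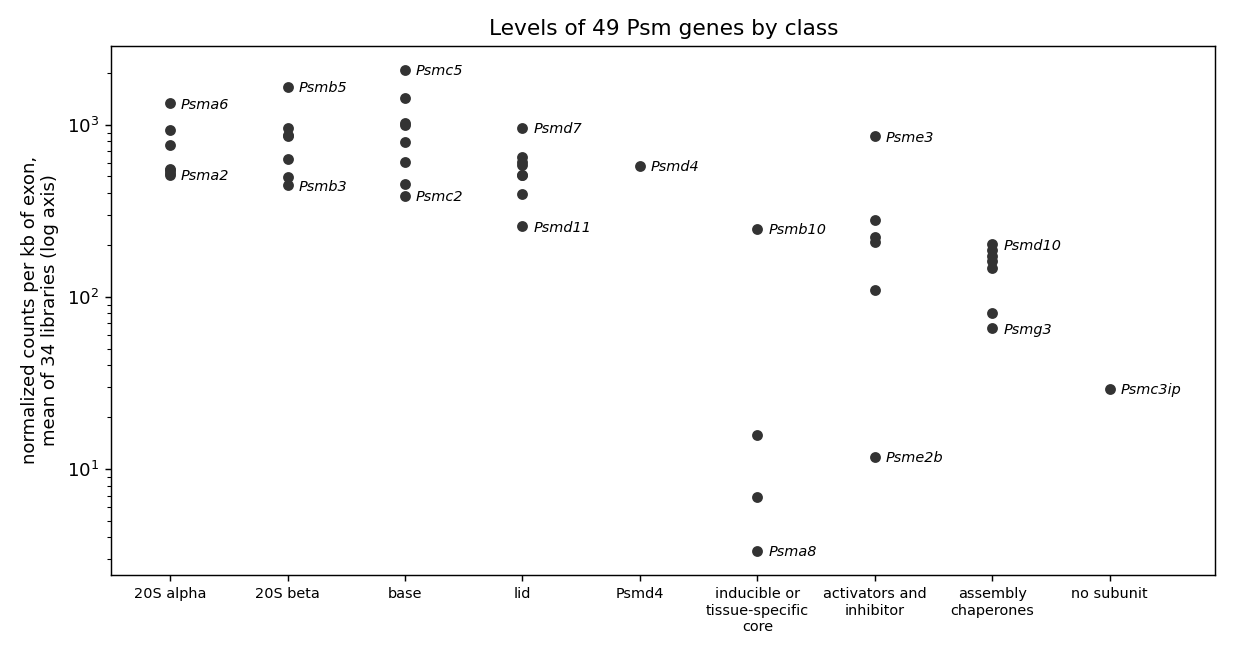
Mean level of each of the 49 genes over 34 libraries, in normalized counts per kb of exon on a log axis, by class. The highest and the lowest gene of each class are named; the constitutive classes lie between 257.4 for Psmd11 and 2078 for Psmc5, and Psma8 is lowest at 3.35.

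The core and the regulatory particle differed little in level per length. The median of the 14 core genes was 681 ± 42.4 per kb in PFC heterozygotes and 697 ± 32.6 in PFC wild type, against 604 ± 25.8 and 621 ± 20.7 for the 17 genes of the regulatory particle (SD). The ratio of core to regulatory medians was 1.13 ± 0.0531 in PFC heterozygotes and 1.123 ± 0.0312 in PFC wild type. In hippocampus it was 1.20 ± 0.0542 in heterozygotes and 1.18 ± 0.0430 in wild type, and in striatum 1.147 ± 0.0430 in heterozygotes and 1.16 ± 0.0137 in wild type. All 6 means lay above 1 and their library ranges overlapped between the genotypes within each region. The excess of the core rests on the length used: with the mean transcript length the means ran from 1.017 to 1.062, and with that length and means of log2 values in place of medians all 6 lay below 1, between 0.8832 and 0.9452. A score over these genes was given no test.

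Within the regulatory particle the base was above the lid. Its median was 931 ± 23.7 per kb in PFC heterozygotes and 923.6 ± 25.2 in PFC wild type, against 557 ± 19.3 and 566 ± 8.48 for the lid. In striatum the base stood at 813 ± 37.1 in heterozygotes and 818 ± 32.2 in wild type. No library of either striatum group reached the lowest PFC library of either genotype, with a highest striatum value of 874.7 and a lowest PFC value of 889.8. That separation rests on the scaling: with equal totals the base ran from 846.5 to 909.9 in PFC heterozygotes and from 839.8 to 915.0 in PFC wild type, against 792.5 to 891.9 in striatum heterozygotes and 817.4 to 882.4 in striatum wild type. Assembly chaperones had medians from 143 ± 4.64 per kb in PFC heterozygotes to 170 ± 13.6 in striatum wild type.

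Psmb10, the inducible trypsin-like subunit, reached a larger share of its constitutive counterpart Psmb7 than the other inducible subunits did of theirs. Per kb of exon Psmb10 was 57.9 ± 6.16% of Psmb7 in PFC heterozygotes and 54.0 ± 5.49% in PFC wild type. The share was 30.6 ± 2.98% in hippocampus heterozygotes and 35.6 ± 4.17% in hippocampus wild type. In striatum it was 28.6 ± 4.09% in heterozygotes and 30.5 ± 3.39% in wild type. The lowest PFC share, 46.5%, was above the highest share of the other regions, 40.8%. In heterozygotes the share in PFC exceeded that in hippocampus by 27.4 percentage points (exact permutation test, 2-sided, p = 0.007937, the smallest that 5 against 5 libraries allow, adjusted p = 0.0536 over 27 tests of 3 ratios). It exceeded that in striatum of heterozygotes by 29.3 points (exact p = 0.004329, adjusted p = 0.0390). In wild type the share in PFC exceeded that in hippocampus by 18.4 points and that in striatum by 23.5 points (exact p = 0.002165 in both, the smallest that 6 against 6 libraries allow, adjusted p = 0.0292). Other genes, mostly Nek6, share 33.5% of the 31-base words of the Psmb7 transcript, so its count is uncertain. Nek6 averaged 753.1 in PFC, 1245 in hippocampus and 568.2 in striatum of heterozygotes. In wild type it averaged 764.5, 1114 and 676.8 in the same regions. The part of Nek6 in these shares was not tested.

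Psmb8 stood at 0.773% to 1.13% of Psmb5 over the 6 group means, and Psmb9 at 0.482% to 1.01% of Psmb6. Both inducible genes were read from few counts, with group means of 44.9 to 60.8 normalized counts for Psmb8 and 15.0 to 32.5 for Psmb9. None of the 3 ratios differed between the genotypes in any region after adjustment.

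Between regions the proteasome genes had smaller median absolute differences than all genes tested, which were not matched for level. The comparisons ask which region holds more of each RNA within 1 genotype. In heterozygotes the median absolute log2 difference of the 47 genes was 0.089 for PFC against hippocampus, 0.12 for PFC against striatum and 0.090 for hippocampus against striatum, beside 0.23, 0.29 and 0.23 for all 17080 genes tested. In wild type it was 0.081, 0.12 and 0.091 in the same contrasts, beside 0.22, 0.28 and 0.23 for all 17017 genes tested. Passing the test below means a Benjamini-Hochberg adjusted p under 0.05 over all genes in limma. The 3 comparisons within a genotype share their libraries and are given side by side.

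In PFC against hippocampus of heterozygotes 6 of 47 genes were higher and 7 lower, beside 20.7% higher and 21.9% lower of all genes tested. That made 27.7% of the 47 genes and 42.6% of all genes. For PFC against striatum of heterozygotes 11 were higher and 7 lower, beside 26.9% and 28.1%, or 38.3% of the 47 genes and 54.9% of all. For hippocampus against striatum of heterozygotes 7 were higher and 4 lower, beside 22.7% and 22.6%, or 23.4% of the 47 genes and 45.3% of all.

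In wild type 6 genes were higher and 5 lower in PFC than in hippocampus, beside 22.7% and 23.6% of all genes tested, or 23.4% of the 47 genes and 46.3% of all. For PFC against striatum of wild type 14 were higher and 7 lower, beside 27.7% and 29% of all genes tested, or 44.7% of the 47 genes and 56.6% of all. For hippocampus against striatum of wild type 10 were higher and 5 lower, beside 23.6% and 23.9% of all genes tested, or 31.9% of the 47 genes and 47.5% of all. As deposited, the share of these genes that passed was below that of all genes in each of the 6 comparisons.

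As deposited, the libraries of 2 regions did not overlap for fewer genes still. In heterozygotes 7 of 47 genes showed no overlap for PFC against hippocampus, where 31.4% of all genes did, 10 for PFC against striatum, where 38.2% did, and 8 for hippocampus against striatum, where 29.5% did. In wild type the counts were 5 for PFC against hippocampus, where 29% of all genes did, 9 for PFC against striatum, where 35.8% did, and 6 for hippocampus against striatum, where 29.8% did. These counts rest on the scaling. With equal totals more of the 47 genes showed no overlap in both contrasts of PFC, in each genotype. The share of all genes without overlap is not given at that scaling. Leaving out single libraries moved 4 of the wild-type counts of genes that passed, and 1 of heterozygotes, beyond 1.5 times. In wild type the 6 genes higher in PFC than in hippocampus became 3 without PFC replicate 5, hippocampus replicate 4 or hippocampus replicate 6, and the 5 lower became 8 without PFC replicate 5. The 10 genes higher in hippocampus than in striatum became 6 without striatum replicate 6, and the 5 lower became 3 without hippocampus replicate 6, striatum replicate 2 or striatum replicate 4. In heterozygotes the 4 lower in hippocampus than in striatum became 2 without hippocampus replicate 1, hippocampus replicate 3 or striatum replicate 3.

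The split into higher and lower genes rests on the scaling. Normalized counts summed to more in PFC than in the other regions, and giving each library the same total shifted the median gene. In heterozygotes it then lay at -0.107 log2 units for PFC against hippocampus and at -0.162 for PFC against striatum, against -0.012 and -0.014 as deposited. In wild type it lay at -0.099 and -0.15, against -0.0095 and -0.011 as deposited. With equal totals the counts in heterozygotes were 3 higher and 18 lower for PFC against hippocampus, 4 and 27 for PFC against striatum and 3 and 7 for hippocampus against striatum. In wild type they were 3 and 19, 4 and 23, and 4 and 9. These made 44.7%, 66% and 21.3% of the 47 genes in heterozygotes, beside 47.4%, 59.9% and 45.9% of all genes with equal totals, and 46.8%, 57.4% and 27.7% in wild type, beside 50.9%, 61.3% and 48.5%. The share for PFC against striatum of heterozygotes was then above that of all genes, and the other 5 were below. The genes that passed in the same direction under both scalings are described first, and no gene passed in opposite directions. Among them Psmb10 and Psmc5 were higher in PFC than in both other regions, Psmc3 and Psme3 were lower in striatum than in both others, and Psmc3ip and Psme1 were lower in PFC than in both others, each in both genotypes. Psmb5 was lower in striatum than in hippocampus under both scalings in both genotypes.

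Psmb10 (ENSMUSG00000031897, GRCm38 chr8:105935735-105938444) showed the widest regional contrast of the proteasome subunits with a call in both genotypes. It read 613.7, 619.2, 582.3, 582.1 and 658.3 normalized counts in PFC heterozygotes, against 356.1, 306.0, 337.3, 310.3 and 330.5 in hippocampus heterozygotes. In wild type it ran from 552.4 over a median of 584.6 to 722.5 in PFC, against 329.7, 381.3 and 438.5 in hippocampus. In striatum it ran from 241.2 over 301.4 to 363.9 in heterozygotes and from 293.1 over 311.2 to 380.5 in wild type. Every PFC library was above every library of the other regions in either genotype. PFC exceeded hippocampus 1.86-fold in heterozygotes (log2 difference 0.90, SE 0.0897, limma adjusted p = 1.41e-07) and 1.59-fold in wild type (0.67, SE 0.0866, adjusted p = 1.23e-06). PFC exceeded striatum 2.03-fold in heterozygotes (1.02, SE 0.0859, adjusted p = 6.94e-09) and 1.86-fold in wild type (0.90, SE 0.0866, adjusted p = 7.99e-09). Hippocampus against striatum differed by 0.12 in heterozygotes (adjusted p = 0.263) and by 0.23 in wild type (adjusted p = 0.0314), and the wild-type call was lost with equal totals (adjusted p = 0.0938), on leaving out every library with a code of the 31 series (adjusted p = 0.158) and without hippocampus replicate 1, 2 or 4 or striatum replicate 1, 2 or 4. Psmb10 overlaps an antisense gene, Gm16156, and the labels do not say whether counting used the strand.

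Its constitutive counterpart Psmb7 passed in none of the 6 comparisons as deposited, with log2 differences from -0.024 to 0.073. With equal totals it passed as lower in PFC than in striatum of heterozygotes (-0.15, adjusted p = 0.0363). Without PFC replicate 4 it passed as higher in PFC than in striatum of wild type (adjusted p = 0.0413). Of the other inducible pairs, Psmb9 was higher in PFC than in hippocampus of heterozygotes (0.93, SE 0.303, adjusted p = 0.0181), a call that was lost without PFC replicate 4 (adjusted p = 0.0587), PFC replicate 5 (0.0503) or hippocampus replicate 2 (0.0529). In wild type Psmb9 differed by 0.098 in that comparison (adjusted p = 0.830). Psmb8 passed in none, with 0.32, 0.13 and -0.19 in heterozygotes and -0.18, 0.18 and 0.36 in wild type for PFC against hippocampus, PFC against striatum and hippocampus against striatum. Psmb6, the caspase-like subunit, was lower in PFC than in striatum, with a log2 difference of -0.14 in both heterozygotes (adjusted p = 0.0147) and wild type (adjusted p = 0.00589). It was also lower in hippocampus than in striatum of wild type (-0.11, adjusted p = 0.0303), a call lost without hippocampus replicate 3 or 6 or striatum replicate 2, 4 or 5. With equal totals Psmb6 was lower in PFC than in hippocampus too (adjusted p = 0.00707 in heterozygotes and 0.0241 in wild type).

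Psmc5 (ENSMUSG00000020708, chr11:106256154-106263120), an ATPase of the base, was highest in PFC. It read 3328, 3326, 3294, 3341 and 3321 normalized counts in PFC heterozygotes, against 2558, 2648, 2548, 2632 and 2672 in hippocampus heterozygotes. In wild type it ran from 3214 over 3351 to 3455 in PFC and from 2447 over 2554 to 2827 in hippocampus. Striatum libraries ran from 2622 to 2931 in heterozygotes and from 2588 to 2900 in wild type. No library of hippocampus or striatum reached the lowest of PFC, although with equal totals PFC and striatum overlapped in wild type. PFC exceeded hippocampus by 0.35 in heterozygotes (SE 0.0369, adjusted p = 3.16e-07) and by 0.38 in wild type (SE 0.0387, adjusted p = 3.80e-08). PFC exceeded striatum by 0.25 in heterozygotes (SE 0.0353, adjusted p = 7.31e-06) and by 0.30 in wild type (SE 0.0387, adjusted p = 6.71e-07).

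Psmc3 (ENSMUSG00000002102, chr2:91054009-91066369), another ATPase of the base, was lowest in striatum. It averaged 2795 ± 108 in PFC, 2873 ± 116 in hippocampus and 2271 ± 153 in striatum of heterozygotes, and 2726 ± 127, 2718 ± 118 and 2256 ± 143 in the same regions of wild type (SD). The groups of striatum and of either other region did not overlap within a genotype, although with equal totals PFC and striatum overlapped in both genotypes. PFC exceeded striatum by 0.30 in heterozygotes (SE 0.0477, adjusted p = 2.48e-05) and by 0.27 in wild type (SE 0.0448, adjusted p = 1.77e-05). Hippocampus exceeded striatum by 0.34 in heterozygotes (SE 0.0477, adjusted p = 7.67e-06) and by 0.27 in wild type (SE 0.0448, adjusted p = 2.75e-05).

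Psmb5 (ENSMUSG00000022193, chr14:54614119-54618022) read 1766, 1556, 1712, 1793 and 1550 normalized counts in hippocampus heterozygotes, against 1238 to 1392 with a median of 1317 in striatum heterozygotes. In wild type it ran from 1511 to 1739 in hippocampus, with a median of 1649, and from 1257 to 1426 in striatum, with a median of 1359. Hippocampus lay above striatum without overlap in both genotypes, by 0.35 in heterozygotes (SE 0.0567, adjusted p = 4.77e-05) and by 0.29 in wild type (SE 0.0472, adjusted p = 2.07e-05). Against PFC, the signs as deposited were the same in both genotypes, but different contrasts passed. PFC was below hippocampus in heterozygotes (-0.23, adjusted p = 0.00370), while the wild-type difference of -0.091 did not pass (adjusted p = 0.122). PFC was above striatum in wild type (0.20, adjusted p = 0.00100), while the heterozygote difference of 0.12 did not pass (adjusted p = 0.0934). The wild-type call against striatum was lost with equal totals (0.057, adjusted p = 0.309). PFC passed as higher than striatum of heterozygotes without PFC replicate 4 (adjusted p = 0.0248), and as lower than hippocampus of wild type with equal totals (adjusted p = 0.00283) and without PFC replicate 5 (adjusted p = 0.0417). The pseudogene Gm3375 and other genes share 74.0% of the 31-base words of the Psmb5 transcript, so its count is uncertain.

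**Figure D2:**
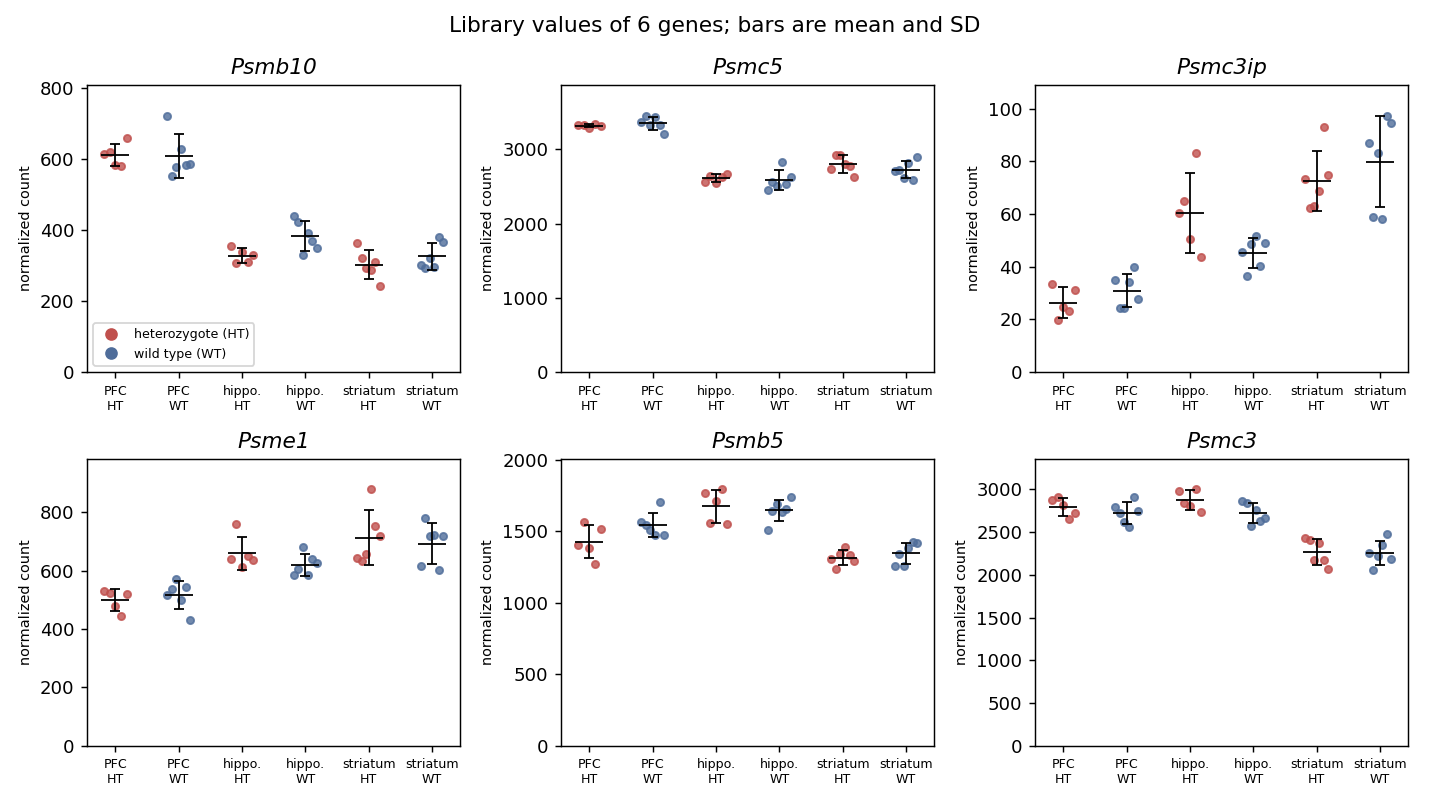
Normalized counts of Psmb10, Psmc5, Psmc3ip, Psme1, Psmb5 and Psmc3 in each library, by region with heterozygotes (HT, red) left of wild type (WT, blue); black bars are group mean and SD. Psmb10 stands at 552.4 or above in all 11 PFC libraries and at 438.5 or below in all others, and within each region the genotypes overlap for these 6 genes.

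Among the activators, Psme1 was lowest in PFC and Psme3 was lowest in striatum. Psme1 (ENSMUSG00000022216, chr14:55578123-55581529) encodes a subunit of the interferon-induced cap. It read 531.6, 523.0, 478.8, 444.5 and 521.0 normalized counts in PFC heterozygotes, against 639.8, 758.0, 613.3, 649.3 and 637.3 in hippocampus heterozygotes. In PFC wild type it ran from 431.4 to 572.0, against 583.6 to 681.8 in hippocampus and 602.9 to 781.0 in striatum wild type. PFC lay below both other regions without overlap in both genotypes. The log2 difference of PFC minus hippocampus was -0.40 in heterozygotes (SE 0.0871, adjusted p = 0.00101) and -0.27 in wild type (SE 0.0731, adjusted p = 0.00465). The log2 difference of PFC minus striatum was -0.51 in heterozygotes (SE 0.0834, adjusted p = 3.91e-05) and -0.42 in wild type (SE 0.0731, adjusted p = 3.56e-05).

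Psme2, the partner of Psme1 in that cap, was lower in both PFC (-0.38, adjusted p = 0.00163) and hippocampus (-0.46, adjusted p = 3.30e-04) than in striatum of heterozygotes, and it shares 66.2% of its 31-base words with Psme2b. In wild type Psme2 had the same signs and did not pass as deposited (PFC -0.31, adjusted p = 0.0509, and hippocampus -0.26, adjusted p = 0.1165). Psme3 averaged 2676 ± 73.8 in PFC, 2614 ± 153 in hippocampus and 2264 ± 79.5 in striatum of heterozygotes, and 2704 ± 75.8, 2600 ± 71.9 and 2289 ± 69.8 in wild type. Striatum was below both regions without overlap in both genotypes, except that with equal totals it overlapped with PFC in wild type. PFC exceeded it by 0.24 in heterozygotes (adjusted p = 6.90e-05) and by 0.24 in wild type (adjusted p = 1.95e-06), and hippocampus exceeded it by 0.21 in heterozygotes (adjusted p = 4.67e-04) and by 0.18 in wild type (adjusted p = 8.28e-05). Psmf1, the inhibitor, was higher in PFC than in hippocampus (0.29 in heterozygotes, adjusted p = 0.00788; 0.20 in wild type, adjusted p = 0.0375), a call that was lost with equal totals in both genotypes (adjusted p = 0.0606 in heterozygotes and 0.267 in wild type) and, in wild type, without PFC replicate 2, 3 or 5 or hippocampus replicate 2, 4 or 6.

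As deposited, and apart from Psmc5, Psmc3 and Psmb5, the constitutive subunits that passed differed by 0.23 log2 units at most. With equal totals some differed by more, among them Psma6 (-0.32, adjusted p = 3.80e-06) for PFC against striatum of heterozygotes. In that contrast of wild type Psmd1 then differed by -0.31 (adjusted p = 3.75e-07). In the lid, Psmd6 was lower in PFC than in hippocampus, with a log2 difference of -0.20 in both heterozygotes (adjusted p = 0.00324) and wild type (adjusted p = 3.00e-04), and without overlap in wild type. Psmb2, a beta subunit without a proteolytic site, was lower in PFC than in hippocampus, by -0.14 in heterozygotes (adjusted p = 0.0252) and by -0.15 in wild type (adjusted p = 0.0129). For Psmb2 the heterozygote call did not hold under every alternative run. Psmc1, an ATPase gene, was higher in PFC than in hippocampus as deposited (0.16 in heterozygotes, adjusted p = 0.00398; 0.11 in wild type, adjusted p = 0.0299), which was lost with equal totals (adjusted p = 0.227 in heterozygotes and 0.712 in wild type) and, in wild type, without PFC replicate 2 or 5, without hippocampus replicate 4 or 6 and on leaving out the codes of the 31 series (adjusted p = 0.0504). Psmc2 was lower in PFC than in hippocampus of wild type (-0.094, adjusted p = 0.0427), a call that was lost with the replicate block (adjusted p = 0.0651) and without PFC replicate 1, 3 or 4 or any 1 of the 6 hippocampus libraries.

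Against striatum, PFC held more Psma5, an alpha subunit, by 0.21 in heterozygotes (adjusted p = 3.64e-04) and by 0.23 in wild type (adjusted p = 3.85e-04). Both calls were lost with equal totals (adjusted p = 0.220 in heterozygotes and 0.133 in wild type). Psmd1, a scaffold of the base, was lower in PFC than in striatum, by -0.14 in heterozygotes (adjusted p = 0.0191) and by -0.17 in wild type (adjusted p = 6.49e-04). The heterozygote call did not hold under every alternative run. Psma6, another alpha subunit, was lower in PFC than in striatum (-0.17 in heterozygotes, adjusted p = 0.00244; -0.11 in wild type, adjusted p = 0.0226), and the wild-type call was lost without PFC replicate 3 or 4 or striatum replicate 1. Psmb1, a beta subunit, was lower in hippocampus than in striatum (-0.14 in heterozygotes, adjusted p = 0.0175; -0.11 in wild type, adjusted p = 0.00974). Psmb3, a beta subunit, was higher in hippocampus than in striatum (0.18 in heterozygotes, adjusted p = 0.0184, and 0.129 with equal totals; 0.16 in wild type, adjusted p = 0.00352). Psma4 was lower in PFC than in hippocampus (-0.17, adjusted p = 0.00466) and higher in hippocampus than in striatum (0.16, adjusted p = 0.00472, and 0.0519 with equal totals) in heterozygotes. In wild type Psma4 had the same signs and did not pass as deposited (-0.10, adjusted p = 0.0523, and 0.091, adjusted p = 0.0844). Other genes share 66.8% of the 31-base words of Psmb3, 66.5% of those of Psma5, 46.4% of those of Psma4, 39.7% of those of Psmc1 and 33.5% of those of Psmb7, so these counts are uncertain too. Shares were smaller for Psma3 (27.9%), Psmg3 (24.4%), Psme1 (22.1%) and Psmb9 (13.8%). For PFC against striatum of heterozygotes 1 of 14 core genes was higher and 2 lower, and 7 of 17 regulatory genes were higher and 1 lower, beside 54.9% of all genes called in either direction. In wild type 3 core genes were higher and 4 lower, and 7 regulatory genes higher and 1 lower, beside 56.6% of all genes. With equal totals the counts in heterozygotes were 0 and 11 for the core and 2 and 9 for the regulatory particle, beside 59.9% of all genes, and in wild type 0 and 8 and 2 and 7, beside 61.3%.

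Of the assembly chaperones, few passed. Psmg3, a chaperone of core assembly, was higher in PFC than in hippocampus of wild type (0.32, SE 0.0895, adjusted p = 0.00541). There 6 of 6 PFC libraries were above the hippocampus mean, although the groups overlapped. In heterozygotes the difference had the other sign and did not pass (-0.090, adjusted p = 0.506). Psmd10, a chaperone of the base also known as gankyrin, was lower in PFC than in striatum of heterozygotes (-0.28, adjusted p = 0.00521) and lower in hippocampus than in striatum of wild type (-0.25, adjusted p = 0.0115). The other genotype had the same sign and did not pass as deposited. There PFC minus striatum was -0.14 in wild type (adjusted p = 0.1285), and hippocampus minus striatum was -0.19 in heterozygotes (adjusted p = 0.0588). In PFC against striatum 6 of the 7 chaperones lay below 0 in each genotype, with medians of -0.090 in heterozygotes and -0.12 in wild type.

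Psmc3ip (ENSMUSG00000019303, chr11:101091823-101095436), which is no subunit, differed more between PFC and striatum than any other of the 47 genes. It read 33.5, 19.6, 24.7, 23.0 and 31.1 normalized counts in PFC heterozygotes, against 60.2, 65.0, 50.4, 83.1 and 43.6 in hippocampus heterozygotes. In PFC wild type it ran from 24.3 to 40.0, against 36.5 to 51.7 in hippocampus wild type. In striatum it ran from 62.2 to 93.1 in heterozygotes and from 57.9 to 97.3 in wild type. PFC lay below striatum without overlap in both genotypes, with a log2 difference of -1.44 in heterozygotes (SE 0.188, adjusted p = 2.29e-06) and of -1.33 in wild type (SE 0.174, adjusted p = 8.16e-07). PFC was also below hippocampus, with a log2 difference of -1.16 in heterozygotes (SE 0.196, adjusted p = 8.22e-05) and of -0.55 in wild type (SE 0.174, adjusted p = 0.0131), where these groups overlapped. Hippocampus was below striatum without overlap in wild type (-0.79, SE 0.174, adjusted p = 6.79e-04), while in heterozygotes the groups overlapped (-0.28, adjusted p = 0.244). Psmc3ip shares 28.2% of its 31-base words with the neighbouring gene Mlx, which averaged 614.5 ± 37.7 in PFC heterozygotes and 628.3 ± 77.8 in PFC wild type, against 583.5 ± 78.0 and 578.0 ± 92.4 in striatum, and passed in none of the 6 comparisons.

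The regional contrasts of wild type and of heterozygotes come from separate libraries. For PFC against hippocampus 8 genes passed in the same direction in both, 61.5% of the heterozygote list and 72.7% of the wild-type list. For PFC against striatum 14 did, 77.8% and 66.7%, and for hippocampus against striatum 7 did, 63.6% and 46.7%, heterozygotes first. No gene passed in opposite directions. Across the 47 genes Pearson's r between heterozygote and wild-type differences was 0.739, 0.925 and 0.688 in the 3 contrasts, a description across genes that are not independent replicates.

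**Figure D3:**
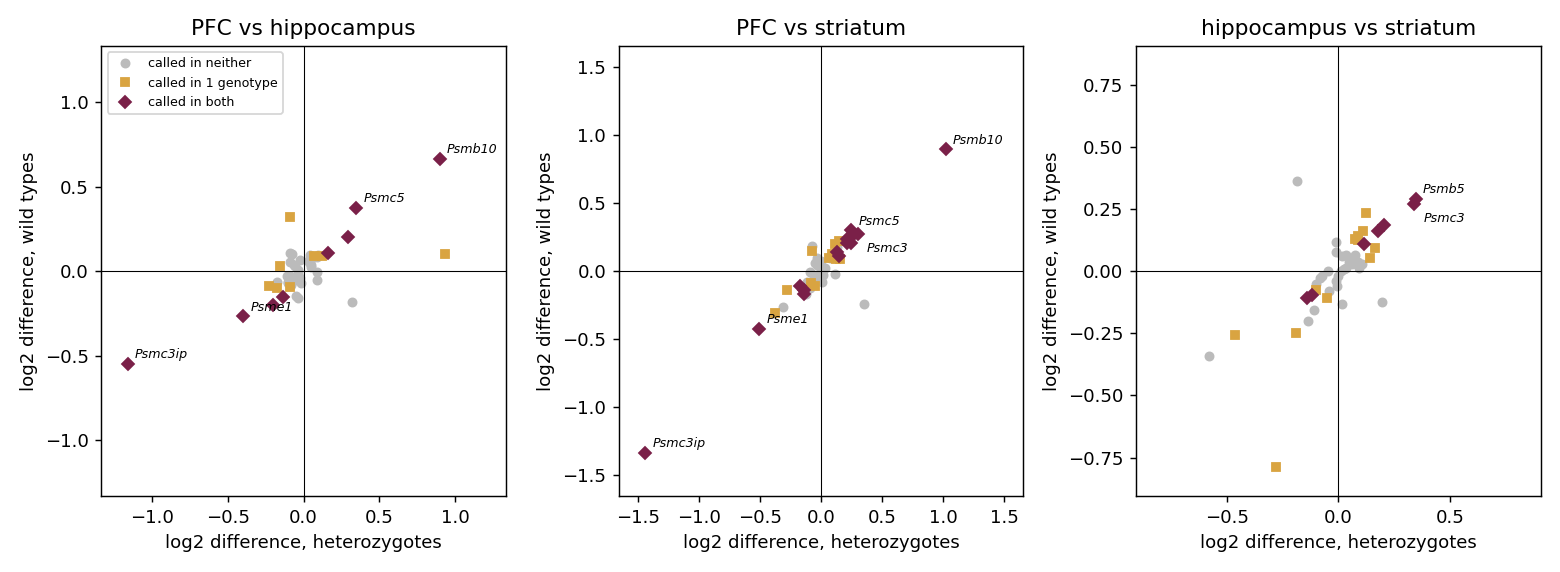
Log2 difference between regions for each of 47 genes in heterozygotes (horizontal) against wild type (vertical), 1 panel per contrast of regions. Genes called in both genotypes (8, 14 and 7) are diamonds and all lie in the quadrants of equal sign; Psmb9 lies at 0.93 in heterozygotes and 0.098 in wild type for PFC against hippocampus.

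Cell type markers moved with the regions, and in bulk tissue fewer cells of a type and less RNA per cell cannot be told apart. Of 8 microglia markers 8 were higher in PFC than in hippocampus of heterozygotes and 7 in wild type, and their summed level ran from 11670 to 12140 in PFC heterozygotes and from 10630 to 12580 in PFC wild type, against 8822 to 10100 and 9119 to 10130 in hippocampus. Against striatum 8 of 8 passed in heterozygotes and 4 of 8 in wild type. Of 6 endothelial markers 6 were higher in PFC than in striatum of heterozygotes and 5 in wild type, with sums of 7251 to 8294 and 6844 to 8150 in PFC against 5562 to 6642 and 5622 to 6752 in striatum. All 5 oligodendrocyte markers were lower in PFC than in striatum in both genotypes, with sums of 93610 to 106000 and 70250 to 110100 in PFC against 193600 to 226700 and 171300 to 209900 in striatum. All 4 choroid plexus markers were lower in PFC, with sums of 74.0 to 186.1 in the PFC libraries, against 1950 to 83210 in hippocampus and 718.0 to 85980 in striatum. Of 5 pan-neuronal markers 4 were higher in PFC than in striatum in each genotype, with sums of 181700 to 204000 in PFC and 98020 to 121100 in striatum. No marker was at 0 in every library of a group, although 1 choroid plexus marker was at 0 in 1 PFC wild-type library, and the part of these differences in the results on Psmb10, Psme1, Psmc3ip and the others was not tested.

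Heterozygotes and wild type did not differ in any of these genes by the test, in any region. In PFC 0 of 49 genes tested passed, where 0% of 16667 genes tested did, in hippocampus 0 of 47, where 0% of 16820 did, and in striatum 0 of 48, where 0% of 17054 did. At an unadjusted p under 0.05 there were 3, 4 and 0 genes, beside 5%, 6.81% and 5.89% of all genes tested. The median absolute log2 difference was 0.037, 0.031 and 0.042, beside 0.064, 0.069 and 0.070 for all genes, which were not matched for level. The 31 constitutive subunits lay between -0.12 and 0.063 in PFC, between -0.10 and 0.087 in hippocampus and between -0.073 and 0.11 in striatum.

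In PFC 12 of the 14 core genes lay below 0, with a median of -0.033, while the 17 regulatory genes had 9 above and 8 below with a median of 0.0015. In hippocampus the medians were -0.0058 for the core and 0.015 for the regulatory particle, and in striatum -0.021 and 0.0085. The medians of all genes were -0.0031, -0.0014 and -0.0038 in the 3 regions. Psmb5 in PFC read 1406, 1565, 1382, 1274 and 1515 in heterozygotes, against 1474 to 1702 in wild type, with a difference of -0.12 (SE 0.0578, adjusted p = 0.977) and overlapping groups. Psmb6 and Psmb7 differed in PFC by -0.049 and -0.091 (adjusted p = 0.978 and 0.977). Psmb10 differed in PFC by 0.0095, with a 95% interval in limma from -0.14 to 0.16.

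The smallest p-values in PFC belonged to Psmg3 and Psma3. Psmg3 read 193.7, 184.1, 189.2, 158.2 and 169.1 normalized counts in PFC heterozygotes, against 189.9 to 232.9 with a median of 223.5 in wild type, and the groups overlapped. Its difference was -0.27 (SE 0.0950, limma adjusted p = 0.977), and it was below the wild-type mean in 5 of 5 heterozygotes. Psma3 averaged 2059 ± 121 in PFC heterozygotes and 2219 ± 89.2 in wild type (-0.11, adjusted p = 0.977). The lid gene Psmd13 was the remaining gene at an unadjusted p under 0.05. In the other direction Psmb8 (0.26, SE 0.219, adjusted p = 0.978) and Psmd1 (0.063, adjusted p = 0.978) did not pass.

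In hippocampus Psmb1 read 2171, 2067, 2120, 2113 and 2041 normalized counts in heterozygotes, against 2192 to 2324 with a median of 2250 in wild type. The groups did not overlap, which 0.678% of all genes tested in hippocampus also showed, and the difference was -0.10 (SE 0.0353, limma adjusted p = 0.719). For no other gene of the set did the genotype groups stand apart without overlap, in any of the regions; in PFC and striatum 0.462% and 0.399% of all genes did so. Psmd5, a chaperone of the base, averaged 1271 ± 90.2 in heterozygotes and 1454 ± 159 in wild type (-0.19, SE 0.0709, adjusted p = 0.719), and Psmb10 averaged 328.0 ± 20.5 and 383.9 ± 41.8 (-0.22, SE 0.0846, adjusted p = 0.719). Psmb9 averaged 15.0 ± 5.00 in heterozygotes and 23.5 ± 6.97 in wild type (-0.62, SE 0.295, adjusted p = 0.744), and Psmb8 differed by -0.24 (adjusted p = 0.863). The constitutive catalytic genes Psmb5, Psmb6 and Psmb7 differed by 0.024, 0.012 and -0.0041 in hippocampus. Upward, Psma4 (0.087, SE 0.0390, adjusted p = 0.727) and Psmc3ip (0.39, SE 0.183, adjusted p = 0.742) did not pass.

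In striatum the smallest p-values were those of Psmd5 (-0.14, SE 0.0704, adjusted p = 0.859) and Psmb4, a beta subunit (-0.073, SE 0.0453, adjusted p = 0.895), and upward those of Psma3 (0.11, SE 0.0669, adjusted p = 0.888) and Psmb8 (0.31, SE 0.186, adjusted p = 0.890). Psmd5 averaged 1340 ± 137 in striatum heterozygotes and 1471 ± 123 in wild type, and the groups overlapped. Psmb10 averaged 302.9 ± 40.7 in heterozygotes and 326.8 ± 37.9 in wild type (-0.11, adjusted p = 0.916). Psmb9 differed by -0.38 (adjusted p = 0.912), and Psmb5, Psmb6 and Psmb7 by -0.031, -0.049 and -0.018.

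Averaged over the 3 regions, 0 of 47 genes passed, where 0.0938% of 17051 genes tested did, 0.0469% higher and 0.0469% lower. The smallest p-values were those of Psmb1 (-0.058, SE 0.0223, limma adjusted p = 0.372) and Psmd5 (-0.14, SE 0.0547, adjusted p = 0.372), and upward those of Psma4 (0.039, adjusted p = 0.682) and Psmc3 (0.042, adjusted p = 0.687). At an unadjusted p under 0.05 stood 3 of 47 genes, the third being Psmb10 (-0.11, adjusted p = 0.530), beside 9.37% of all genes. No difference of the genotype effect between regions passed, for these genes or for any of the 17051 genes tested (0%). The smallest p for such a difference belonged to Psmg3, for PFC minus hippocampus (-0.41, SE 0.123, limma adjusted p = 0.9995), followed by Psmc3ip (-0.61, SE 0.250, adjusted p = 0.9995).

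**Figure D4:**
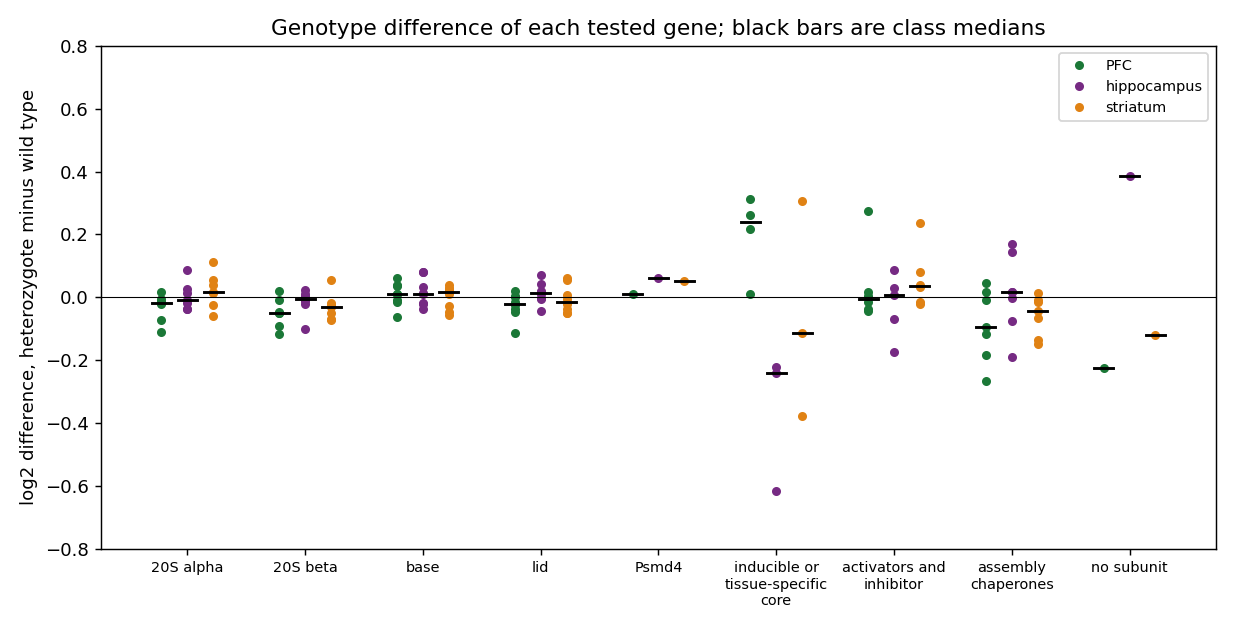
Log2 difference of heterozygotes minus wild type for each tested gene by class, in PFC, hippocampus and striatum (colours); black bars are class medians. The constitutive classes lie between -0.12 and 0.11, the inducible core genes spread from -0.62 to 0.31, and none of the points passed the test.

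Of 41 further genes of the ubiquitin and proteasome pathway without the Psm prefix, 40 stood in the table. None passed between the genotypes in any region, and the smallest p-values were those of Erap1, a peptide trimming enzyme, in PFC (0.45, SE 0.131, limma adjusted p = 0.904), Pomp, a chaperone of core assembly, in hippocampus (0.15, SE 0.0599, adjusted p = 0.719) and Ecpas, which binds the proteasome, in striatum (-0.15, SE 0.0493, adjusted p = 0.716). Between regions of heterozygotes 7 were higher and 4 lower in PFC than in hippocampus, 14 and 7 in PFC than in striatum, and 9 and 7 in hippocampus than in striatum. These counts stand beside 42.6%, 54.9% and 45.3% of all genes called in either direction. In wild type the counts were 10 and 12, 11 and 14, and 9 and 5 in the same order, beside 46.3%, 56.6% and 47.5% of all genes. The counts and calls of pathway genes are as deposited, and those with equal totals are not given.

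Among the pathway genes that passed in PFC against both other regions in both genotypes was Ubqln4, a shuttle receptor that brings ubiquitinated proteins to the proteasome. It averaged 4269 ± 171 in PFC, 2891 ± 156 in hippocampus and 2801 ± 247 in striatum of heterozygotes, and 4357 ± 245, 3052 ± 171 and 2846 ± 220 in wild type. PFC did not overlap with either region, with 0.56 and 0.61 in heterozygotes (adjusted p = 2.04e-07 and 1.85e-08) and 0.51 and 0.62 in wild type (adjusted p = 2.51e-08 and 7.76e-10), hippocampus given before striatum. Uchl5, a deubiquitinase of the regulatory particle, was higher in PFC than in striatum (0.53 in heterozygotes, adjusted p = 3.44e-06; 0.57 in wild type, adjusted p = 2.03e-09). Sem1, a lid subunit without the prefix, was lower in PFC than in striatum (-0.40 in heterozygotes, adjusted p = 3.92e-06; -0.38 in wild type, adjusted p = 6.68e-06), as was Uba6, an activating enzyme of ubiquitin (-0.45, adjusted p = 2.05e-05; -0.39, adjusted p = 1.34e-05, heterozygotes first).

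Of the genes tied to the immunoproteasome, Tap1, a peptide transporter subunit whose gene neighbours Psmb9, was lower in PFC than in hippocampus of wild type (-0.68, SE 0.149, adjusted p = 6.08e-04). In heterozygotes Tap2, the other transporter subunit, was lower in PFC than in hippocampus (-0.38, adjusted p = 0.00867). Irf1, an interferon-induced transcription factor, was higher in hippocampus than in striatum (0.54 in heterozygotes, adjusted p = 9.58e-04; 0.54 in wild type, adjusted p = 0.00311). Among regulators of proteasome gene transcription, Maff was higher in PFC than in hippocampus of wild type (0.78, adjusted p = 0.00864), Mafg in heterozygotes (0.38, adjusted p = 5.13e-06), and Nfe2l2 was lower in PFC than in hippocampus of heterozygotes (-0.28, adjusted p = 0.00162). Ddi2, the protease that activates Nfe2l1, was higher in hippocampus than in striatum of heterozygotes (0.35, adjusted p = 3.41e-05). Where only 1 genotype is named for a pathway gene, the value in the other is not given.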

How the data were processed

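RNA sequencing libraries were made with a TruSeq RNA v2 kit, per the labels' protocols. The authors deposited 1 table of signal per gene and library, DESeq normalized counts, which are read counts divided by a size factor and not whole numbers. Salmon 1.1.0, R 3.6.2, DESeq2 1.26.0 and GRCm38 are named in the submitters' processing notes without a role; how strands were counted is not given in the sources used here. Since the values are scaled, limma was used, as foreseen for values that are not whole counts. Depth is unknown, so precision is the spread between libraries.

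Symbols, positions and exon lengths came from GENCODE M21 (18533 of 18548 identifiers matched, 15 did not), promoters from RefSeq (GRCm38.p6). Values were taken as log2(value + 1), so fold changes are on that scale and understate those of low genes. Genes with a mean of at least 10 in a fit were tested 2-sided in R 4.3.3 with the moderated linear models of limma 3.58.1 (trend and robust options on); p-values were adjusted over every gene tested (Benjamini-Hochberg), with a threshold of 0.05. Genotypes were compared within a region, regions in 1 model per genotype; the average over regions and the differences of effects used all 34 libraries with the column code as a random block. Words of 31 bases shared with other genes were counted in the GENCODE transcripts. Ratios were tested by exact permutation in scipy 1.17.1. Other steps used python 3.11.15, numpy 2.4.6, pandas 2.3.3 and matplotlib 3.10.9. The fits were tested on simulated data.

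The genes and lists were chosen with earlier results of these data known. Named are the catalytic subunits and their inducible counterparts; per comparison the genes that passed, at most 5 per direction by size, or else the 2 with the smallest p; the highest and lowest per length of each class; and of the pathway list 2 per direction that passed, or else the smallest p. Further genes were named after their values were seen. Replicate numbers are those of the labels. Deviations from group means of same-numbered libraries correlated at -0.0983 to 0.296 and not all above 0.1, so the numbers were not taken as pairs. Libraries of 2 regions with the same code correlated at -0.0327 to 0.296. Their median was above that of pairs with different codes in each contrast of regions. The medians ran from 0.0317 to 0.1131 with the same code and from -0.0126 to 0.0073 with different codes. Alternatives were another pseudocount, no filter, equal library totals, blocks by replicate number or code, other lengths, and leaving out libraries singly or those whose code begins with 31.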

Additional observations from a re-analysis of the deposited data

Results flagged for a closer look

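In 8 of 174 groups of 5 or 6 libraries (29 named genes in 6 groups each), 1 library stood apart from the rest by Dixon's criterion, which chance gives in about 1 of 20 groups. Psmb9 read 72.7 normalized counts in striatum wild type replicate 6, against a mean of 24.5 for the other libraries of that group. Psme2 read 501.7 in hippocampus wild type replicate 1, against a mean of 325.6. Psme1 read 758.0 in hippocampus heterozygote replicate 2, against 634.9, and Psmf1 read 930.3 in PFC heterozygote replicate 2, against 749.4. Psma3 read 2513 in hippocampus wild type replicate 6, against 2106, and Psmd1 read 3333 in hippocampus wild type replicate 3, against 3199. Psma5 was low with 1162 in PFC wild type replicate 4, against 1367, and Psmb3 was low with 845.1 in striatum heterozygote replicate 1, against 975.9.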

How the results depend on the processing

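None of these genes passed between the genotypes under any alternative run. Equal library totals moved the counts of genes that passed between regions, in heterozygotes to 3 higher and 18 lower for PFC against hippocampus, 4 and 27 for PFC against striatum and 3 and 7 for hippocampus against striatum, and in wild type to 3 and 19, 4 and 23, and 4 and 9. Of all genes 47.4%, 59.9% and 45.9% then passed in heterozygotes and 50.9%, 61.3% and 48.5% in wild type. It also reversed small differences that did not pass: Psmb7 in heterozygotes against wild type of hippocampus (0.0055), in hippocampus against striatum of heterozygotes (-0.030), and in PFC against hippocampus (-0.026), PFC against striatum (-0.069) and hippocampus against striatum (-0.043) of wild type. In PFC against striatum of heterozygotes it reversed Psmb8 (-0.012) and Psmb5 (-0.033). Without the libraries whose code begins with 31, Psmb10 in PFC (-0.00090) and Psmb5 in hippocampus (-0.020) reversed between genotypes, as did Psmb6 in PFC against hippocampus of wild type (0.00090) and Psmb7 in the effects of hippocampus minus striatum (-0.0082). The replicate block changed no count by over 1.5 times. It reversed Psmb10 in PFC (-0.00090) and Psmb7 in hippocampus (0.012) between genotypes and, among differences of effects, Psmb8 (0.048) and Psmb6 (0.0043) for PFC minus striatum and Psmb7 (-0.0028) for hippocampus minus striatum. With the block within genotype, the average over regions could not be fitted. The causes were not tested.

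Leaving out single libraries gave 2 to 4 genes lower in hippocampus than in striatum of heterozygotes, 3 to 7 higher and 4 to 8 lower in PFC than in hippocampus of wild type, and 6 to 10 higher and 3 to 6 lower in hippocampus than in striatum of wild type. Small differences changed sign. Between genotypes these were Psmb10 in PFC (-0.018 to 0.060) and Psmb5 (-0.00080 to 0.052), Psmb6 (-0.0043 to 0.042) and Psmb7 (-0.033 to 0.037) in hippocampus. In heterozygotes they were Psmb7 in PFC against hippocampus (-0.065 to 0.0054), PFC against striatum (-0.036 to 0.029) and hippocampus against striatum (-0.0052 to 0.064). In wild type they were Psmb9 in PFC against hippocampus (-0.015 to 0.31) and striatum (-0.36 to 0.020) and Psmb7 in hippocampus against striatum (-0.0057 to 0.022). Among differences of effects they were Psmb8 (-0.17 to 0.081) and Psmb6 (-0.024 to 0.023) for PFC minus striatum and Psmb7 (-0.013 to 0.054) for hippocampus minus striatum.

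The ratio of core to regulatory medians moved with the length used. With the longest transcript it was 1.214 in PFC heterozygotes and 1.213 in PFC wild type, 1.264 in hippocampus wild type, 1.233 in striatum heterozygotes and 1.261 in striatum wild type. With the mean transcript length it was 1.017 in heterozygotes and 1.033 in wild type of PFC, 1.048 and 1.062 in hippocampus, and 1.026 and 1.05 in striatum, in that order. With a mean of log2 values it was 1.062 and 1.087 in PFC, 1.119 and 1.137 in hippocampus, and 1.122 in striatum wild type. With both the mean transcript length and a mean of log2 values, chosen after seeing the data as were the overlaps with equal totals and the levels by longest transcript, all 6 ratios lay below 1, at 0.8832 in heterozygotes and 0.9037 in wild type of PFC, 0.9303 and 0.9452 in hippocampus, and 0.9311 and 0.9335 in striatum.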
